A study of Homo sapiens with 18 samples.

Results

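In HEK293T cells, H3K27ac regions were examined whose strongest point lay at the start of a long noncoding RNA (lncRNA) gene. That point also lay over 1 kb from every protein-coding start. The peaks of the 6 H3K27ac libraries were merged wherever they shared at least 1 bp, and the summit of a merged region was taken from its peak with the highest −log10 q-value. A region was kept when this summit lay no more than 1 kb from an annotated transcription start site (TSS) of a GENCODE lncRNA gene and over 1 kb from every protein-coding TSS. Of 55382 merged regions, 2239 met the rule and are called lncRNA promoter regions or members here. The rule concerns the summit alone, so a wide member can still reach over a protein-coding start. The value of a member in a library is its highest peak there, which can lie at such a start. For comparison, 8028 regions lay at a protein-coding start only, 2075 at starts of both kinds, and 43040 at neither. The members carried the names of 2206 of the 18390 annotated autosomal lncRNA genes and each was named for its nearest lncRNA TSS.

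HEK293T is a transformed line derived from human embryonic kidney. Cells were left untreated (CTRL) or were cultured for 1 day with 1 mM valproic acid (VPA), which inhibits histone deacetylases, and chromatin was immunoprecipitated with antibodies against H3K27ac or CTCF. Each of the 4 groups had 3 libraries, and the 6 input samples were not analysed here. The labels number the replicates but do not say whether they were separate cultures, so the p-values measure the spread between these libraries, which may be technical.

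As background, acetylation of lysine 27 on histone H3 (H3K27ac) marks active promoters and enhancers, and histone deacetylases remove it. lncRNA genes are transcribed by RNA polymerase II, and many start within or beside protein-coding genes. Some are known for work in the nucleus, such as scaffolding nuclear bodies or silencing imprinted neighbours. Others mainly carry small nucleolar RNAs (snoRNAs) or microRNAs in their transcripts. CTCF binds DNA in a sequence-specific manner and holds chromatin loops at their base.

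The promoters of 5 members are shown because they span the range of the data. They are the top 2 by fold enrichment, 2 of the leading ones found only after VPA, and the largest called fall in fold enrichment. Each run is hg38 sequence from 250 bp before to 50 bp after the annotated gene start, 5′ to 3′ on the strand of the gene, with every CpG in capitals. ENSG00000274292 (chr12:121800547-121800846, plus strand) starts inside RHOF on the opposite strand, and ENSG00000259952 (chr16:29807683-29807982, minus strand) starts inside MAZ on the opposite strand. ENSG00000230226 (chr20:63502037-63502336, plus strand) and ENSG00000230197 (chr17:19077525-19077824, plus strand) lie outside coding genes. ZEB2-AS1 (chr2:144517728-144518027, plus strand) starts inside ZEB2, a zinc finger repressor gene, on the opposite strand.
ENSG00000274292: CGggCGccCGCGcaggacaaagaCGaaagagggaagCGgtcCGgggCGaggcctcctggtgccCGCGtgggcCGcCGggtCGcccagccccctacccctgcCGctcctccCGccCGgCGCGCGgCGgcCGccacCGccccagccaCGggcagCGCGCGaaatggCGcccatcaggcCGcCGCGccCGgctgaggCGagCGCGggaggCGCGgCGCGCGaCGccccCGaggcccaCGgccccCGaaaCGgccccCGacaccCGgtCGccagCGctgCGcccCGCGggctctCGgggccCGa
ENSG00000259952: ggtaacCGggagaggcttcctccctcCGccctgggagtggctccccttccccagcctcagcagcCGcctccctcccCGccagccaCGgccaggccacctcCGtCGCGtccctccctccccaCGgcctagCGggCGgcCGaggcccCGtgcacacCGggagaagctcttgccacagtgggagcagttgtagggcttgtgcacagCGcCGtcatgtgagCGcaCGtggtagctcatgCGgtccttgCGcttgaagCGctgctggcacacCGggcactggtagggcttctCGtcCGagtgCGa
ENSG00000230226: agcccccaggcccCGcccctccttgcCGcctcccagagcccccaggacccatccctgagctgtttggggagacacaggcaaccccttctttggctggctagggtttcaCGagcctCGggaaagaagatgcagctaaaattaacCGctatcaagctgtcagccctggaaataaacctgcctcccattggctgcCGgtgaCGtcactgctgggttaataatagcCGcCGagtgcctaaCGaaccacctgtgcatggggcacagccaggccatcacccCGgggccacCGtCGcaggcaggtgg
ENSG00000230197: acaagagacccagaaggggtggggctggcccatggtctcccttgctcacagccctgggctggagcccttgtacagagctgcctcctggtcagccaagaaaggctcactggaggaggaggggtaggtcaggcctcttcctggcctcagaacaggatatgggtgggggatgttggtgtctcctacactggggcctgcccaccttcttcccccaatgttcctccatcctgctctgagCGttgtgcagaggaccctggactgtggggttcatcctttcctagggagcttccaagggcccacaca
ZEB2-AS1: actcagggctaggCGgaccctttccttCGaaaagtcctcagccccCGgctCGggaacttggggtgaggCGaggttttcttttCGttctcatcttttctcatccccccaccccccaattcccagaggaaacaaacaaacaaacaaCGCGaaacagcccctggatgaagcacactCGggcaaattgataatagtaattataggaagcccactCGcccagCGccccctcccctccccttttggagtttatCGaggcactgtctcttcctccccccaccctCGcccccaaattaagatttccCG
The top 2 held 53 and 25 CpGs in 300 bp, the VPA-only promoters 13 and 1, and ZEB2-AS1 held 14.

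Members of all 6 libraries had more CpGs than those of fewer. In the 500 bp around the summit, the ratio of observed to expected CpG had a median of 0.746 over the 1278 members with a peak in all 6 libraries and of 0.228 over the 46 members that every VPA library held and no CTRL library did. Coding promoter regions were split alike, with 0.812 over the 6773 in all 6 libraries and 0.242 over the 37 only in VPA. Over all members the median was 0.630, below the 0.801 of coding promoter regions and above the 0.295 of regions at neither kind of start. The median was 0.308, 0.337, 0.321, 0.538 and 0.556 in members of 1, 2, 3, 4 and 5 libraries. Median GC content was 64.2% in members of all 6 libraries and 50.0% in members of 1. These values describe sequence only and were not tested.

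**Figure D1:**
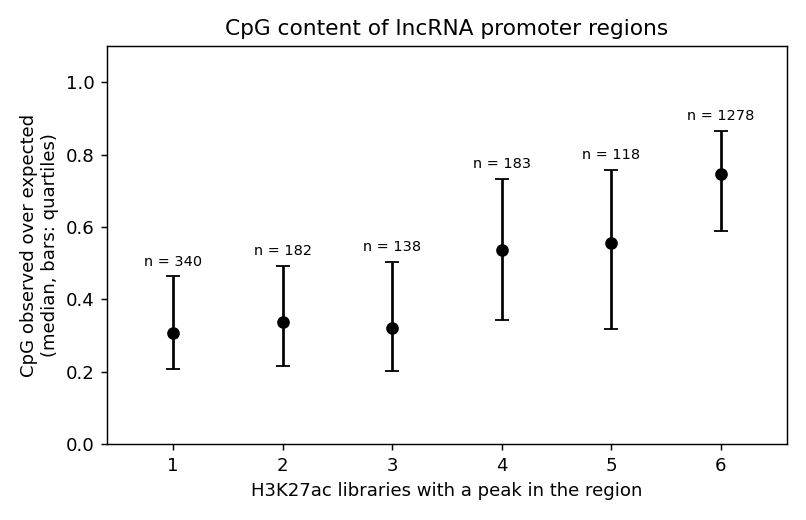
Ratio of observed to expected CpG in 500 bp around the summit of each lncRNA promoter region, by the number of H3K27ac libraries with a peak there. Points are medians and bars run from the lower to the upper quartile. The median is 0.308 in the 340 members of 1 library and 0.746 in the 1278 members of all 6.

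Short motifs were counted in the same 300 bp of each named gene. The GC box (GGGCGG, searched on both strands, which itself holds a CpG) was present in 58.1% of the promoters of 1274 genes naming members of all 6 libraries and in 9 of 45 (20%) naming members only in VPA. It was present in 22.8% of all lncRNA promoters and 52.6% of all protein-coding promoters. The TATA box (TATAAA, sense strand) occurred in 3.22% of the promoters of members in all 6 libraries, compared with 9.21% of all lncRNA and 7.66% of all protein-coding promoters. The AP-1 motif (TGANTCA, both strands) was present in 7 of 45 promoters of members only in VPA (15.6%), in 5.73% of those of members in all 6 libraries and in 9.90% of all lncRNA promoters. A match is a run of letters, not a bound site.

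Member summits lay at a median of 313 bp from the named TSS, compared with 282 bp at coding promoters. The summit was downstream of the start in 60.0% of members and in 80.3% of coding promoter regions. Member widths ran from 296 to 31720 bp with a median of 1690 bp, and 130 members (5.81%) were wider than 5 kb. More than 1 lncRNA TSS lay within 1 kb of the summit in 193 members (8.62%), so the name of these regions is 1 of several. Among the 89 members with a summit in the last 100 bp inside the limit, 38.2% had a peak in all 6 libraries. Among 93 regions in the first 100 bp outside it, the share was 28.0%.

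Read totals are not known. The genome-wide background coverage of the H3K27ac libraries, recovered from the peak values, lay between 3.51 and 3.95 fragments. Replicate 1 stood apart in both treatments. Its local background at members found in all 6 libraries had a median of 44.6 fragments in CTRL and 39.3 in VPA, compared with 10.9 to 11.7 in the other libraries. Fold enrichments are ratios to this local background, and those of replicate 1 were the lowest of the 3 in each treatment (medians of 8.02 and 7.61 over these members). Peaks were present at the starts of LHX1, a kidney developmental gene, and of the housekeeping genes GAPDH and EEF1A1 in 6 of 6 libraries, and of ACTB in 5. No library had one at PAX2 or LIN28B, also listed as HEK293T markers, or at markers of liver, blood and heart (ALB, PTPRC, CD3E, HBB, MYH6).

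The first question was how many lncRNA promoters carried an H3K27ac peak in each treatment. More members were found after VPA for every replicate number, and the VPA lists were longer (38441 to 40992 H3K27ac peaks, against 26299 to 29799 in CTRL). Peaks were present at 1385, 1656 and 1608 members in CTRL replicates 1, 2 and 3, and at 1638, 1925 and 1896 in the VPA replicates. VPA replicate 1 lay below CTRL replicate 2, so the groups overlapped, although the ratio was 1.18, 1.16 and 1.18 within the replicate numbers. The means were 1549.7 ± 144.6 and 1819.7 ± 158 (SD, n = 3 each), and the ratio of 1.17 did not pass the exact permutation test (two-sided p = 0.2, adjusted p = 0.3 over 9 tests). A test with the replicate block gave an exact permutation p of 0.25, its lowest possible value. With each list cut to its 26299 peaks of highest −log10 q-value, the length of the shortest, the difference in means of 270 members became 19 (exact permutation p = 0.5).

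The ratio of lncRNA promoters lay between those of other regions. The ratio of VPA to CTRL in regions found was 1.04 at coding promoters, 1.01 at starts of both kinds and 1.74 at regions with neither. On the log2 scale, lncRNA promoters differed from coding promoters by 0.18 and from regions at neither start by −0.56 (exact permutation tests, p = 0.1 each, the smallest that 3 against 3 libraries allow, and adjusted p = 0.18). As a share of all regions in a library, members made up 5.97% ± 0.103 of a CTRL list and 4.83% ± 0.109 of a VPA list (SD, n = 3 each). The groups did not overlap in this share (exact p = 0.1, adjusted p = 0.18). With lists of equal length, the differences between classes were 0.015 and −0.074 on the log2 scale (exact p = 0.5 and 0.2), and that in the share was −0.15 points (exact p = 0.5).

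**Figure D2:**
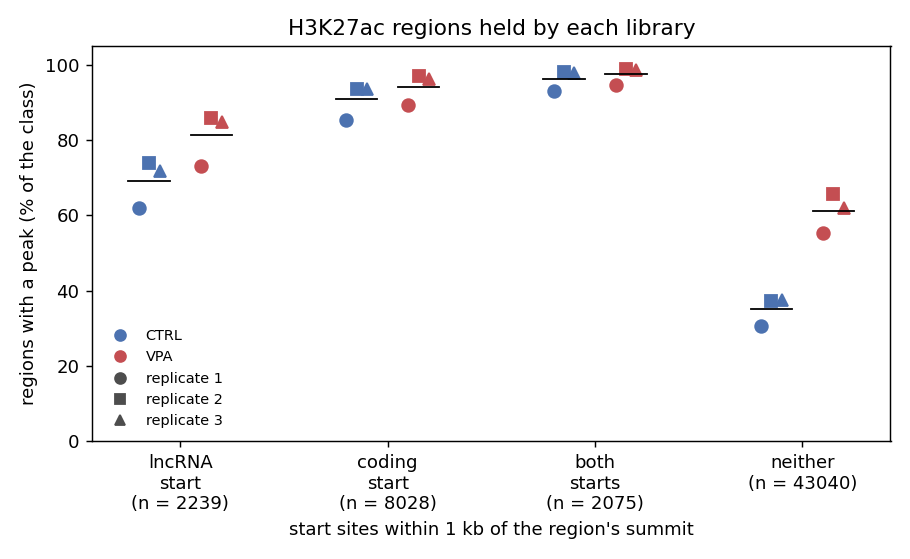
Share of the merged H3K27ac regions of each class that had a peak in each library, with CTRL in blue and VPA in red, 1 marker shape per replicate number and a line at the mean of 3 libraries. Members at lncRNA starts run from a mean of 69.2% in CTRL to 81.3% in VPA, compared with 90.9% and 94.2% at coding starts and 35.1% and 61.0% at neither.

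Next, members were compared by how many libraries held them. A peak in all 6 libraries was present at 57.1% of members, 84.4% of coding promoter regions, 92.5% of regions at both kinds of start and 19.6% of those at neither. Of the 340 members found in a single library, 87, 102 and 89 came from VPA replicates 1, 2 and 3, and 14, 26 and 22 from the CTRL replicates. Within its library, a member's best peak had a median rank by −log10 q-value of 65.3 to 66.5 (percentile of the list) in CTRL and 70.7 to 72.3 in VPA. This was 11.2 points below coding promoters on average and lower in 6 of 6 libraries (exact sign-flip permutation test, p = 0.031, the smallest possible, adjusted p = 0.141).

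The share in all libraries was then split by kind of lncRNA gene. All 13 members at snoRNA host genes had a peak in 6 of 6 libraries, as did 86.1% of 36 members at genes named as divergent transcripts, 81.0% of 21 at microRNA hosts and 70.2% of 302 at antisense genes. The share was 55.0% of 278 members at genes with a LINC symbol and 50.7% of 1411 at genes with an identifier only. None of the 11 at genes named as overlapping or intronic transcripts was found in all 6 libraries. By position, 62.0% of 749 members starting inside a coding gene on the opposite strand were in all 6 libraries, compared with 40.1% of 147 starting inside one on the same strand. Differences between these kinds were not tested.

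**Figure D3:**
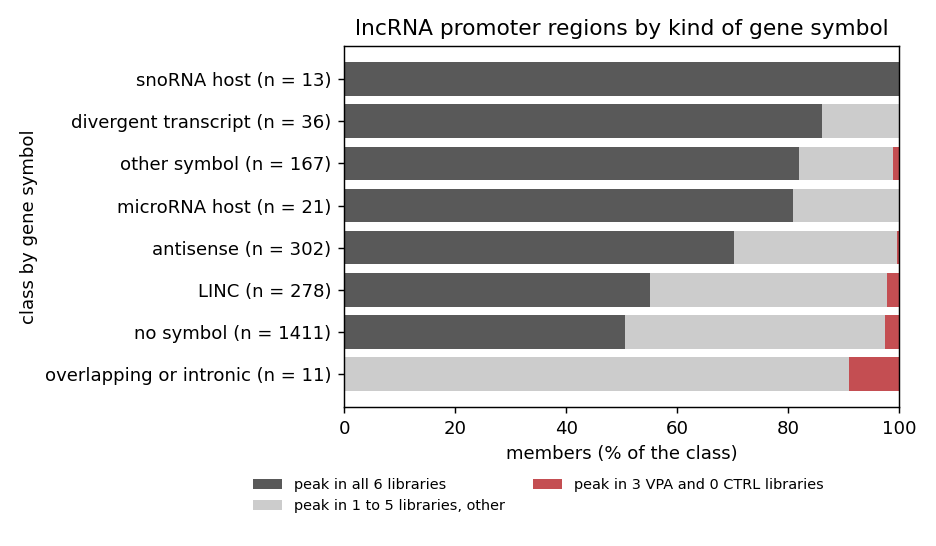
Members of each class of lncRNA gene symbol, as shares with a peak in all 6 libraries, in every VPA but no CTRL library, or in any other set of 1 to 5 libraries. The all-6 share runs from 100% of snoRNA hosts to 50.7% of genes without a symbol and 0 of 11 overlapping or intronic transcripts.

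Members only in VPA numbered 46 (2.05%), compared with 37 coding promoter regions (0.461%) and 2198 regions at neither start (5.11%). Over all merged regions the share was 4.12%, which is above that of members. Members only in CTRL numbered 2, and the share over all regions was 0.139%. Lists of equal length gave counts of 13 for VPA and 8 for CTRL. The count only in VPA became 137 without VPA replicate 1 and 70 without CTRL replicate 2. The count only in CTRL became 8 without CTRL replicate 1 and 4 without VPA replicate 2. Most VPA-only members were modest peaks. Their median fold enrichment was 3.83, 3.20 and 3.52 in VPA replicates 1, 2 and 3, with median ranks of 37.3, 30.2 and 33.2 in the lists. Signal below the calling level is not listed, so these counts do not show that CTRL lacked signal there. Of the 46, 36 were at genes without a symbol and 6 at LINC genes, and 7 of the 147 members inside a coding gene on the same strand were among them (4.76%).

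The highest-ranked of these was at PCAT19 on chromosome 19, a lncRNA gene first named in prostate cancer. Its summit pileup, divided by background coverage to allow for depth, was 22.6, 19.7 and 17.7 in the VPA replicates, and its fold enrichment was 15.1, 7.11 and 5.96. ENSG00000230226, 3.10 kb from the start of the translation elongation factor gene EEF1A2, had 26.1, 19.2 and 20.8 times background coverage. ENSG00000230197 had 18.2, 17.0 and 15.6, and ENSG00000236022, also on chromosome 17, had 17.4, 13.7 and 15.6. LINC01730 reached 14.4, 13.2 and 11.7 times background, and LINC01994 7.07, 10.1 and 6.83. ENSG00000287629, 1.80 kb from the start of the muscle gene KLHL40, had 14.1, 14.7 and 12.6. DIAPH1-AS1, antisense inside the actin regulator gene DIAPH1, had 13.1, 6.07 and 10.4. In summit pileup the 3 VPA values differed most at DIAPH1-AS1, and no CTRL library had a peak at any of these 8. Both members only in CTRL were weak: LINC02230 had 8.54, 8.97 and 8.84 times background in the CTRL replicates, and ENSG00000286707 had 5.79, 8.70 and 7.13.

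The level of H3K27ac was compared at the 1278 members with a peak in all 6 libraries. Summit signal at these regions was lower after VPA in each replicate pair, and it was lower at coding promoters too. Median summit pileup over background coverage was 88.9, 70.2 and 70.5 in CTRL replicates 1, 2 and 3, and 74.1, 53.9 and 56.3 in VPA. The VPA value of replicate 1 exceeded the CTRL values of replicates 2 and 3, so the groups overlapped across numbers. The median log2 change over members was −0.31, −0.43 and −0.35 in replicates 1, 2 and 3. Over all 3 it was −0.36, beside −0.41 at coding promoters, −0.05 at regions at neither start and −0.28 over all 18407 regions found in all 6 libraries. These values are relative to each library's own background and carry no outside standard, so a change in total acetylation cannot be read from them.

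By the deposited fold enrichment the change was smaller than the spread between replicates. Median fold enrichment was 8.02, 20.2 and 20.0 in CTRL and 7.61, 17.4 and 17.7 in VPA, means of 16.1 ± 6.98 and 14.2 ± 5.74 (SD, n = 3 each, exact permutation p = 0.5, adjusted p = 0.563; with the replicate block p = 0.25). The VPA value was the lower of the pair for all 3 replicate numbers, and the difference in means of −1.84 was −1.73 with replicates 2 and 3 only. Leaving out a single library leaves the low values of replicate 1 unequally shared between the groups, and the difference then turned to 1.51 without VPA replicate 1 and to 0.197 and 0.162 without CTRL replicates 2 and 3. Tested region by region with limma on log2 fold enrichment, 0 members were higher and 0 lower at an adjusted p under 0.05, as over all regions (0% higher, 0% lower). At an unadjusted p under 0.05, 4 members were higher and 5 lower, compared with 253 (1.37%) and 48 (0.261%) of all regions. With the replicate number as a block, limma called 41 members higher and 196 lower (3.21% and 15.3%), against 4.73% and 11.8% of all regions. The lower count was 60 without VPA replicate 3 and 65 without CTRL replicate 3, and the higher count fell to between 11 and 19 without 1 of the libraries of replicates 1 and 3. For these smaller fits the shares over all regions are not given.

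Limma on log2 summit pileup over background coverage, with no block, called 33 members higher and 237 lower (2.58% and 18.5%), beside 4.04% and 13.3% of all regions. With the block these became 118 and 805, beside 12.2% and 53.7% of all regions. The median log2 fold enrichment change of members was −0.20, and −0.14 over all regions. After centring each library on the median of all regions the member value was −0.12 and the paired counts were 56 higher and 148 lower, beside 6.45% and 8.57% of all regions. Calls of higher and lower are thus relative to the scaling used.

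The change differed with the level and the CpG content of a region. All regions found in all 6 libraries were divided into 5 groups of equal size by their mean log2 signal over the 6 libraries. The 98 members in the lowest group had a median log2 change of 0.11, and the 312 in the highest group one of −0.62. Limma on pileup called 15 members higher and 5 lower in the lowest group, and 0 higher and 116 lower in the highest. Of all regions in these groups, 10.3% were higher and 2.2% lower in the lowest, and 34.5% were lower in the highest. Coding promoters in the same groups had medians of 0.15 and −0.60, and in the middle group both classes were at −0.24. Split by CpG, the 61 members with a ratio under 0.25 had a median change of 0.25 and the 634 over 0.75 one of −0.50, beside 0.19 and −0.47 at coding promoters. Level and CpG content are linked, and the difference between the classes was not tested here.

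**Figure D4:**
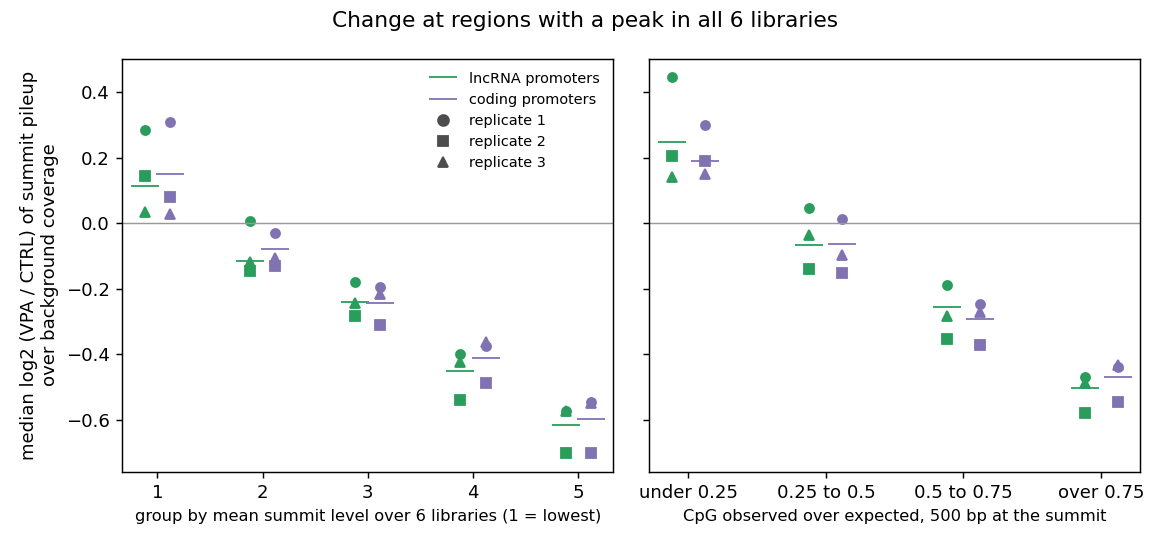
Median log2 ratio of VPA to CTRL in summit pileup over background coverage at regions found in all 6 libraries, by 5 groups of mean level (left) and by CpG content (right), for lncRNA promoters in green and coding promoters in purple. Dashes are medians of the 3-library means and markers the 3 replicate pairs. In the highest group the lncRNA pairs sit at −0.57, −0.70 and −0.57 and the coding pairs at −0.55, −0.70 and −0.55.

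The members with the largest falls were taken from the paired limma calls on fold enrichment. ZEB2-AS1, antisense to the repressor gene ZEB2, had 257.7, 159.0 and 160.0 times background coverage in CTRL replicates 1, 2 and 3 and 98.2, 63.3 and 65.3 in VPA. Every VPA library lay below every CTRL library. It changed by −1.34 ± 0.26 (SE) on the log2 pileup scale (limma, adjusted p = 0.00354). The ZEB2 start lay 3.809 kb from the summit, inside this region of 5582 bp, and its signal was not separated. ENSG00000287190 and ENSG00000276216, both on chromosome 1, changed by −1.31 and −1.19. ENSG00000287828, inside PRDM16 on the opposite strand, changed by −1.52, and ENSG00000260470, inside the DNA repair gene SMUG1 on the same strand, by −1.43. In these 5, the lowest CTRL library exceeded the highest VPA library.

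The largest rises were at weaker regions. ENSG00000272971, at chr1:156615136-156617742, had 9.37, 21.1 and 16.8 times background in CTRL and 35.9, 42.5 and 39.3 in VPA, a log2 change of 1.39 ± 0.24 (SE, limma on pileup, adjusted p = 0.00188). FER1L6-AS1, antisense inside FER1L6, had 5.24, 7.65 and 8.56 in CTRL and 10.6, 14.2 and 14.2 in VPA. ENSG00000285715, inside TACC2 on the opposite strand, had 12.7, 11.6 and 14.6 in CTRL and 24.2, 21.8 and 24.0 in VPA. NCRNA00250, ENSG00000263677 and ENSG00000267568 changed by 0.67, 0.67 and 0.66. The VPA libraries lay above all CTRL libraries in each of the 6. The median CpG ratio was 0.212 over these 6 and 0.707 over the 5 falls named above. Both sets were chosen for their change, so the tests repeat what chose them.

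**Figure D5:**
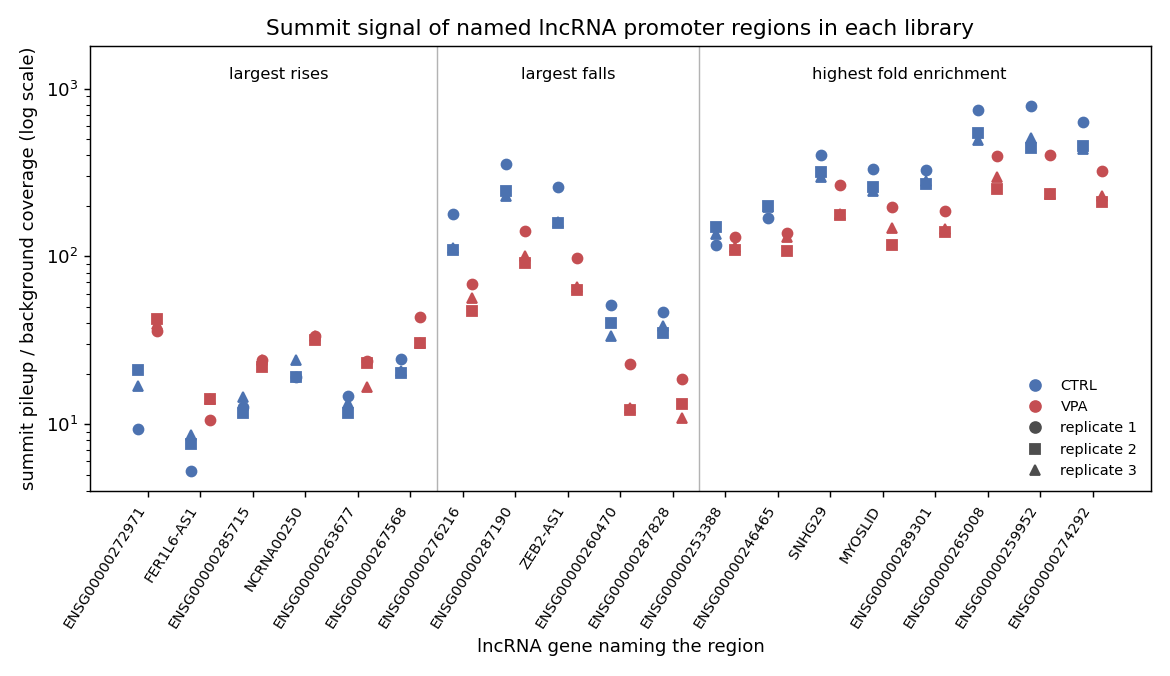
Summit pileup over background coverage (log axis) in each of the 6 libraries at the members with the largest rises, the largest falls and the highest fold enrichment, with CTRL in blue, VPA in red and 1 marker shape per replicate number. At the largest falls every red marker lies below the blue ones of the same gene, as at ZEB2-AS1 with 63.3 to 98.2 against 159.0 to 257.7. At the largest rises the red markers lie above.

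The members of highest mean fold enrichment included 5 that start inside coding genes on the opposite strand: ENSG00000274292 (RHOF), ENSG00000259952 (MAZ), MYOSLID (KLF7), ENSG00000265008 (RNF138) and ENSG00000246465 (SBK1). The first had 630.3, 453.9 and 436.7 times background in CTRL and 323.9, 210.6 and 229.4 in VPA. The MAZ start lay 1.018 kb from the summit, in a region of 9482 bp. That of RNF138 lay 1.165 kb from the summit, in a region of 7665 bp, and that of RHOF 2.963 kb, in a region of 11647 bp. These regions thus hold a coding start as well, and its signal was not separated. With SNHG29 and ENSG00000289301, 6 of the 8 members of highest fold enrichment were lower by limma on pileup without the block. The share was 34.5% of all regions in the highest group of level. The exceptions were ENSG00000246465 (log2 change −0.59) and ENSG00000253388 (−0.18). With the block all 8 were lower, beside 53.7% of all regions of any level. A share with the block for the highest group is not given. ENSG00000253388, on chromosome 8, reversed the usual pattern of the replicates, with fold enrichments of 92.3 and 103.3 in replicate 1 of CTRL and VPA against 29.6 to 41.1 in the other libraries. Pileup there was 110 to 149 times background in all 6 libraries.

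Genes hosting snoRNAs, which guide the modification of ribosomal RNA, had peaks in every library wherever they named a member. Of 32 annotated genes, 13 named a member, and 9 had a region with its summit also within 1 kb of a coding start. In all, 29 had a region over their start. By limma on pileup 0 of the 13 were higher and 3 were lower (SNHG15, SNHG17 and SNHG29), beside 13.3% of all regions. With the replicate block 11 were lower, beside 53.7%, the exceptions being SNHG20 and SNHG30. SNHG17 had 373.7, 275.6 and 263.5 times background in CTRL and 219.2, 151.1 and 149.7 in VPA, with no overlap between the groups. SNHG30 differed little, with 99.8, 96.3 and 103.0 in CTRL and 98.4, 87.6 and 97.5 in VPA. SNHG20 was the weakest, with 9.10, 13.2 and 15.7 in CTRL and 15.5, 14.4 and 9.83 in VPA. The median log2 change of the 13 was −0.53. GAS5, another snoRNA host, named no member, since the region over its start had its summit 1.26 kb away, at a coding start.

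Of 79 annotated microRNA host genes, 21 named a member and 17 of these were in all 6 libraries. Limma on pileup found 0 higher and 7 lower, compared with 4.04% and 13.3% of all regions: MIR1915HG, MIR17HG, MIRLET7A1HG, MIRLET7IHG, MIR23AHG, MIRLET7BHG and MIR181A2HG. With the replicate block 16 of the 17 were lower, beside 53.7% of all regions. The median log2 change of the 17 was −0.62. MIR17HG, host of a growth-promoting microRNA cluster, had 784.7, 518.7 and 497.7 times background in CTRL and 413.6, 260.4 and 270.9 in VPA. MIR1915HG had the largest change of the list, −1.19 (limma, adjusted p = 0.00484), from 242.5, 208.6 and 177.7 to 111.8, 79.2 and 85.5. At MIR9-1HG, host of a microRNA of the nervous system, the groups overlapped, with 263.2, 253.2 and 235.3 in CTRL and 246.9, 190.8 and 196.4 in VPA. MIR3142HG had a peak in VPA replicate 1 only, and MIR4432HG in CTRL replicate 2 and VPA replicates 2 and 3.

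Among nuclear and DNA damage lncRNAs, NEAT1, NORAD, CHASERR and PVT1 named members, all in 6 of 6 libraries. NEAT1, the scaffold of paraspeckles, had 266.2, 212.3 and 207.6 times background in CTRL and 165.3, 124.0 and 121.5 in VPA, with no overlap (log2 change −0.75, limma, adjusted p = 0.0378). NORAD, which binds PUMILIO proteins, had a change of −0.65. CHASERR, which lies beside the remodeller gene CHD2, had one of −0.62, and PVT1 one of −0.36. None of these passed the threshold on pileup without the block, where 13.3% of all regions were lower. All passed it with the block, beside 53.7% of all regions lower. The start of MALAT1, a nuclear speckle RNA, lay in a member of 19.3 kb that is named for ENSG00000270117 and had a summit 0.711 kb from the MALAT1 start. PANDAR and MIAT had no region over their start.

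At imprinted loci, where 1 parental allele is silenced, 3 of 11 listed genes named a member, and the other 8 had no region over their start, H19 and MEG3 included. For H19, 1 region had its summit within 1 kb of an annotated H19 transcript start. KCNQ1OT1, which silences neighbours on its own chromosome, had 143.6, 122.6 and 132.1 times background in CTRL and 101.4, 67.8 and 81.1 in VPA (log2 change −0.69, limma, adjusted p = 0.0455). GNAS-AS1 was level, with 55.4, 49.3 and 43.9 in CTRL and 55.5, 43.3 and 47.2 in VPA. HYMAI had a log2 change of −0.50, past the threshold only with the block (limma, adjusted p = 5.4e-08, against 0.145 without). The peaks do not separate the alleles.

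Among 20 listed neighbours of developmental transcription factor genes, 5 named a member, and 1 of these members was in all 6 libraries. Another 6 had a region with its summit also within 1 kb of a coding start. In all, 12 had a region over their start, and for 8 that region was in all 6 libraries. GATA3-AS1 had 109.7, 90.4 and 98.7 times background in CTRL and 72.9, 54.9 and 60.4 in VPA (limma, adjusted p = 0.0407). SOX1-OT and LINC00461 had a peak in replicates 2 and 3 of both treatments, PAX8-AS1 in VPA replicates 1 and 2, and OTX2-AS1 in VPA replicate 3 alone. Of the 18 HOX cluster lncRNAs, HOXC-AS1 alone named a member, and 6 more had a region with its summit also within 1 kb of a coding start. In all, 15 had a region over their start, and for all 15 that region was in all 6 libraries. The HOXC-AS1 region, the widest of all members at 31.7 kb (chr12:53972101-54003817), also covers the starts of HOTAIR, HOXC-AS2 and HOXC-AS3. The start of the coding gene HOXC9 lay 5.681 kb from the summit, also inside this region, and its signal was not separated. HOXC-AS1 had 361.3, 260.8 and 223.9 times background in CTRL and 150.9, 85.5 and 95.0 in VPA, a log2 change of −1.37 ± 0.27 (SE, limma, adjusted p = 0.00367).

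CTCF was then examined at the same regions. A CTCF summit lay inside 34.8%, 42.6% and 41.3% of members in CTCF CTRL replicates 1, 2 and 3, and inside 36.7%, 42.0% and 37.8% in VPA. The means of 39.6% ± 4.15 and 38.8% ± 2.80 (SD, n = 3 each) differed by −0.759 points, less than the spread (exact permutation test, p = 0.9, adjusted p = 0.9). Of the 2239 members, 685 had a CTCF summit in all 6 CTCF libraries and 1165 in none. A CTCF summit in 3 of 3 libraries of 1 treatment and 0 of 3 of the other occurred at 2 members for CTRL and 1 for VPA. The same counts over all regions are not given, so these values do not set members apart from other regions. The share of members was 7.35 points below that of coding promoters, lower in 6 of 6 libraries (exact sign-flip permutation test, p = 0.031, adjusted p = 0.141). Coding promoter regions were wider (median 2668 against 1690 bp), and within 500 bp of the H3K27ac summit the difference was −0.708 points (exact p = 0.3125).

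The CTCF binding motif, searched as its core of 12 bases on both strands with at most 1 mismatch within 100 bp of the position, was present at the CTCF summit of 38.8% of the 685 members bound in all 6 libraries. It was present at 10.8% of the 389 bound in 1 to 5, at 2.66% of the H3K27ac summits of the 1165 unbound members, and at 1.02% of positions 2 kb beyond the summits of the 685. Of the 5 members with the highest mean CTCF fold enrichment, 2 held such a match, shown here in 30 bp of hg38 with the core in capitals. ENSG00000236501 (chr2:177164739-177164768, plus strand) had a mean CTCF fold enrichment of 155.7, and ENSG00000279927 (chr22:36066061-36066090, minus strand) one of 132.0.
ENSG00000236501: cctctcctaCCACTAGCTGGCgccagagcc
ENSG00000279927: caggggcggCCTCCAGGGGGCgccacggag
At ENSG00000236501, CTCF fold enrichment was 54.8, 175.7 and 189.4 in CTRL and 40.8, 177.1 and 296.2 in VPA, and the groups overlapped. The other 3 were LINC01569, SNHG17 and XKR4-AS1. XKR4-AS1 had CTCF in all 6 CTCF libraries and H3K27ac in VPA replicate 3 only.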

How the data were processed

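The 12 deposited peak lists (6 H3K27ac, 6 CTCF) were analysed. Per the labels and methods, the authors aligned paired reads to hg38 with Bowtie2 and called peaks with MACS3 3.0.0a7 in each single library, at a q-value threshold of 0.05. Whether input was used as the control is not given in the sources used here. The deposited columns hold a fold enrichment (a ratio to local background), a −log10 p-value and a −log10 q-value per peak, all written by the authors' MACS3. The labels also name DiffBind, whose output was not used here. Read totals are unknown.

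The members and gene lists were chosen with earlier results of these data known. Starts were the 5′ ends of GENCODE 44 genes on chromosomes 1 to 22 (18390 lncRNA, 19111 protein-coding). A library held a region if a peak shared at least 1 bp with it, and the highest value among such peaks was used. Summit pileup was solved from the fold, taken as pileup plus 1 over local background plus 1, and the p-value, taken as a Poisson tail. It was whole within 0.05 in 100% of H3K27ac peaks, and the lowest was 11 fragments. The lowest local background of a list served as its background coverage. Exact two-sided permutation tests over libraries were adjusted by Benjamini-Hochberg over 9 tests. Limma 3.58.1 with a variance trend was run on log2 values of the 18407 regions found in all 6 libraries and adjusted over all of them, with no pseudocount. Replicate numbers came from the labels. Deviations from the group means correlated at 0.865, 0.585 and 0.591 between the libraries of replicates 1, 2 and 3. The numbers were therefore taken to pair the samples, and the replicate block is given beside the limma counts. Deviations within a group cancel out, so a replicate 1 that stands apart can by itself raise the values of replicates 2 and 3. Correlations between unlike numbers are not given, so the pairing of replicates 2 and 3 rests on their labels.

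Named genes were all list genes with a member, and the leading members only in VPA (8) or CTRL (up to 5) by rank, by fold enrichment (8), by rise and fall (6 each), by width (5) and by CTCF (5). Since limma without the block called none, rises and falls came from the fit with it. Of the falls 1, and of the promoter sequences 1, are not reported here. Promoter and site sequences were read from hg38 by coordinates. Python 3.11.15, numpy 2.4.6, pandas 2.3.3, scipy 1.17.1, matplotlib 3.10.9, pysam 0.24.0, samtools 1.23.1 and R 4.3.3 were used. Alternatives changed the peak threshold, list length, overlap, starts, window, replicates, pairing, measure, centring and variance trend.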

Additional observations from a re-analysis of the deposited data

How the results depend on the processing

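Peak lists show where signal passed a threshold, and a member absent from a library is not shown to lack acetylation, and precision rests on 3 libraries a group of unknown read depth. Annotation names the members; no transcript was measured here, and a summit inside a coding gene is not tied to either gene.

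The number of members found, their share of the regions, their covered length and both class differences in regions found kept their direction under every alternative run, none of which could bring a p under 0.05 with so few libraries. Their sizes did not hold with lists of equal length: the differences were 19 members in place of 270, −0.15 points in place of −1.14, 323 bp in place of 83.7 bp, and 0.015 and −0.074 in place of 0.18 and −0.56 on the log2 scale. The CTCF difference to coding promoters was then −3.85 points in place of −7.35. With lists of equal length, 13 members had VPA peaks alone and 8 had CTRL peaks alone, while the CTCF share of members turned to 0.789 points higher in VPA. It also turned with replicate 1 alone (1.83) and for CTCF summits within 500 bp (0.223), and with 1 library left out it ran from −3.13 (without CTCF CTRL replicate 1) to 0.759 (without CTCF CTRL replicate 2), with 0.0893 and 0.313 without CTCF CTRL replicate 3 and VPA replicate 1. With peaks kept from a −log10 q-value of 3 upward, members only in CTRL numbered 1, and with starts within 500 bp they numbered 1 beside 23 only in VPA. Replicates 2 and 3 alone gave 155 and 9 such members, and replicate 1 alone gave 295 and 42, both with fewer libraries required. With 1 library left out the counts ran from 57 to 137 (137 without VPA replicate 1, 70 without CTRL replicate 2) and from 2 to 8 (8 without CTRL replicate 1, 4 without VPA replicate 2).

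The rank difference to coding promoters was −11.5 points with replicates 2 and 3 only (exact p = 0.125) and −11.4 to −11.0 with 1 library left out (exact p = 0.0625). These are the smallest p-values those sizes allow. The CTCF difference to coding promoters was −8.01 with replicates 2 and 3 (exact p = 0.125), −7.85 to −6.93 with 1 library left out and −0.708 with the window of 500 bp. With 1 library left out, the difference in median fold enrichment ran from −5.38 without CTRL replicate 1 to 1.51 without VPA replicate 1, as the low values of replicate 1 were then unequally shared between the groups.

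Limma calls depended on the pairing and the measure. Without the block, members higher and lower numbered 33 and 237 on pileup and 14 and 135 with replicates 2 and 3 only, and were 0 otherwise. With the replicate block they numbered 41 and 196, on pileup 118 and 805, and with replicates 2 and 3 only 22 and 157. That last fit covered 1502 members, with 1.465% higher and 10.45% lower, beside 3.563% and 7.073% of all 22651 regions. For replicates 2 and 3 without the block, shares over all regions are not given. With 1 library left out the paired counts ran from 11 to 44 higher and from 60 to 173 lower, without shares over all regions to set beside them. The cause was not tested. The 11 members named for a rise or fall kept their direction under every alternative run, replicate block included. They were chosen for a large change in the same libraries with that block, so a kept direction is no independent check. The analyses of replicates 2 and 3 or 1 alone outside limma, of the CTCF window and of the block together with other choices were chosen after seeing the data.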
